A study of Mus musculus with 8 samples.

Results

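The genes of the ionotropic glutamate receptors and of the GABA-A receptors were examined in mouse embryonic stem cells (mESCs) that lacked SETDB1, had G9a/GLP inhibited, or both. A row of the count tables belonged to them when its symbol was Gria1 to Gria4, Grik1 to Grik5, Grin1, Grin2a to Grin2d, Grin3a, Grin3b, or a numbered Gabra, Gabrb, Gabrg or Gabrr gene, Gabrd, Gabre, Gabrp or Gabrq. This gave 35 of 24062 genes: 4 AMPA, 5 kainate and 7 NMDA receptor genes, together 16, and 19 GABA-A receptor genes, of which 16 are described, so that 32 genes in all are counted in what follows. The rule uses symbols and no expression value, although the group was picked with earlier results of these data known.

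All libraries came from the male mESC line #33-6, which carries a conditional Setdb1 allele, so that each condition was measured in the same line and every library shares that background. SETDB1 is an H3K9 methyltransferase, and UNC0642 blocks the catalytic activity of the H3K9 methyltransferases G9a and GLP. The cells were grown with LIF in serum and serum replacement on gelatin, and poly(A) RNA was sequenced from 2 replicates of each of 4 conditions. WT mESCs received no 4-OHT, the drug that deletes Setdb1 in this line, and no inhibitor. UNC0642-treated mESCs received 2 µM UNC0642 for 3 days, Setdb1 KO mESCs received 800 nM 4-OHT for 5 days, and UNC0642-treated Setdb1 KO mESCs were labelled as 800 nM 4-OHT for 2 days followed by 2 µM UNC0642 for 3 days. This last one is called the combined condition. The treatment protocol and the study's methods give 5 days of 4-OHT for deletion of Setdb1 without separating this condition, so that the length of its 4-OHT exposure is given differently by the sources. Only the KO conditions received 4-OHT, so that 4-OHT exposure and deletion of Setdb1 cannot be told apart here. Their libraries are called those without SETDB1 by treatment and not by a protein level.

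Ionotropic receptors are ion channels that open when a transmitter binds. AMPA, kainate and NMDA receptors are glutamate-gated channels that are assembled of several subunits and let cations in. An NMDA receptor needs the GluN1 subunit encoded by Grin1. GABA-A receptors are pentamers that conduct chloride, most of them built of alpha, beta and gamma subunits in neurons, whereas the rho subunits form channels of their own and are best known from the retina. Most of these genes are best known from neurons.

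The total count was between 11702590 and 26807807 per library, and 3 counts, taken as the detection floor, correspond to between 0.108 and 0.311 CPM (read counts scaled to library size after TMM normalization). Counts of Setdb1 in replicates 1 and 2 were 169 and 127 CPM in WT, 130 and 86.4 with UNC0642 alone, 47.3 and 51.0 in Setdb1 KO cells, and 61.1 and 34.1 in the combined condition. Both KO conditions lay below both WT libraries, although the gene count includes exons outside the deleted part. It passed the test only with the replicate number in the model (adjusted p by edgeR of 0.0164 and 0.00593 with it, 0.181 and 0.0746 without it). The 8 pluripotency genes Pou5f1, Nanog, Sox2, Klf4, Zfp42, Esrrb, Tfcp2l1 and Dppa5a were all above the floor, with a summed level between 2678 and 5426 CPM in every library. By edgeR 0 of the 8 were called in any of the 3 comparisons with WT. Over all features tested (genes and transposable element subfamilies), the shares called were 0.0% with UNC0642, 1.12% in Setdb1 KO and 4.11% in the combined condition. A count of 0 among 8 genes does not show that they were unchanged.

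Most receptor genes were near silence. Of the 32 genes, Gabra6 and Gabrb1 had no read in any library, 12 had a read in every library, and 15 had a mean of at least 10 counts. The filter on low counts, which keeps genes with about 10 counts in at least 2 libraries, left 16 of them for the tests: 11 glutamate receptor genes and 5 GABA-A receptor genes. A gene can pass this filter through the condition in which it is high. The other 16, which were not tested (Gria2, Grik1, Grik2, Grin2b, Grin3a, Gabra2, Gabra5, Gabra6, Gabrb1, Gabrb2, Gabrd, Gabre, Gabrg1, Gabrq, Gabrr2 and Gabrr3), never exceeded 11 counts in a library or 35 counts in total, and have no test across replicates. By their counts alone, and chosen after the values were seen, Gria2 had 11 counts in the combined condition against 0 in WT, Gabrg1 12 in Setdb1 KO cells against 0, and Grin2b 10 with UNC0642 alone against 0, with 95% lower bounds of the ratio, for counting error only, of 2.67, 2.61 and 1.79. The untested genes include the genes of GluA2, the subunit that makes AMPA receptors impermeable to calcium, and of GluN2B.

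**Figure D1:**
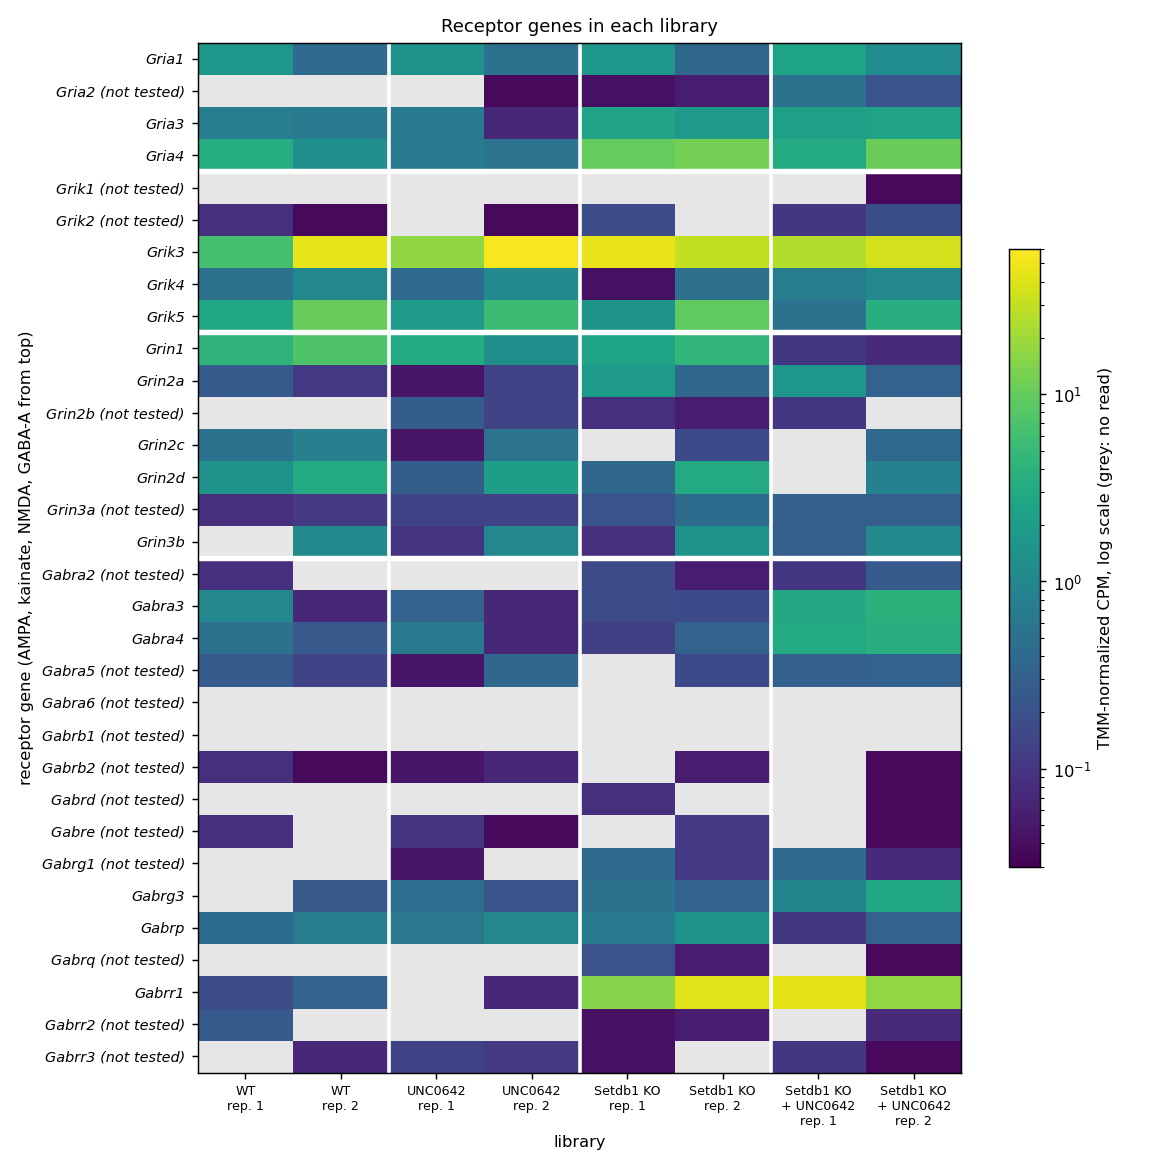
TMM-normalized CPM of the 32 receptor genes (rows, AMPA, kainate, NMDA and GABA-A from the top) in the 8 libraries (columns), with colour on a log scale and grey for no read. Grik3 is high in every condition, Gabrr1 is high only in the 4 libraries of the Setdb1 KO conditions, and Grin1 is lowest in both libraries of the combined condition.

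The DNA just upstream of 4 of these genes is shown because they carry the changes described next and because their content of CpG, the dinucleotide at which mammalian DNA is methylated, differs widely. The stretches of Grin1, Gria4 and Gabra3 hold 250 bases and end at the base before a RefSeq transcription start site (GRCm38.p6). That of Gabrr1 was trimmed to 215 bases and ends at the base before the part that GENCODE lists as exon. All stretches are written on the strand of the gene and have each CpG in capitals. They lie at chr4:33132306-33132520 (plus strand) for Gabrr1, chr2:25319188-25319437 (minus strand) for Grin1, chr9:4796235-4796484 (minus strand) for Gria4 and chrX:72656920-72657169 (minus strand) for Gabra3.
Gabrr1: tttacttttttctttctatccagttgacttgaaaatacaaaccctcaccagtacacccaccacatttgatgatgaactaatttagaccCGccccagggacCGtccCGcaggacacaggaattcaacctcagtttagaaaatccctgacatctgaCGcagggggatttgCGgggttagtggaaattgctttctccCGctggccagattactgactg
Grin1: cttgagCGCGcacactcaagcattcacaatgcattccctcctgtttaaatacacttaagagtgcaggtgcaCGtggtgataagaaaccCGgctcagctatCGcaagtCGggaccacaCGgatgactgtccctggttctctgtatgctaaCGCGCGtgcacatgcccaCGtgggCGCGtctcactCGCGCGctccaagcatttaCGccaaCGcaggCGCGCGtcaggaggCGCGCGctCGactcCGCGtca
Gria4: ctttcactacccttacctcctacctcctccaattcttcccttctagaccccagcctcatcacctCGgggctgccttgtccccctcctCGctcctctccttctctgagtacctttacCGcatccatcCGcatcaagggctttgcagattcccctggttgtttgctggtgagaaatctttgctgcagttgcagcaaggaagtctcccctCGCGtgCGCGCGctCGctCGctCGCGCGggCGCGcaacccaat
Gabra3: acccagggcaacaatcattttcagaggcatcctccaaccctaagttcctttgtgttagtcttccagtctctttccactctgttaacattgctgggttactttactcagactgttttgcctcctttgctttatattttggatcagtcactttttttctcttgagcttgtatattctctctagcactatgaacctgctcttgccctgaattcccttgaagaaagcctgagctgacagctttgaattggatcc
The stretch of Grin1 held 27 CpG and that of Gria4 16, against 6 in the stretch of Gabrr1 and 0 in that of Gabra3. Windows of 250 bases were at hand for 25 receptor genes (29 windows), whose median was 9 CpG, beside a median of 6 and quartiles of 2 and 16 over 32851 windows of all genes. The window of Grik3, the receptor gene with the most counts over all libraries, held 42 CpG, and 99.1% of all windows held fewer. The E-box letters CACGTG, searched on both strands, occurred in 1 receptor window, that of Grin1, and in 6.02% of all windows. The letters TATAAA, searched on both strands like all letters here, occurred in 4 receptor windows and in 12.4% of all windows. The 4 were both windows of Gabra3, 1 of the windows of Gabrb2 and that of Grin3b. In the stretch of Gabra3 shown, they lie on the strand opposite to the gene. Of the letters TTCAGCACC and GGACAGC, which belong to the binding motif of the neuronal gene repressor REST, the first occurred in 0 receptor windows and 0.301% of all, the second in 1 (Gria2) and 5.28% of all. These letters overlap no other motif searched, and their presence or absence in a window describes the window only.

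Without the replicate number in the model, every call of a receptor gene by edgeR on all 8 libraries after the filter on low counts concerned Gabrr1 or Grin1. Gabrr1 was upregulated in both conditions without SETDB1 and Grin1 was downregulated in the combined condition. When Setdb1 KO cells were set against WT, 1 of 16 receptor genes was called (6.25%), beside 1.12% of all 16245 features tested (4.3% of all features and the same gene with the replicate number in the model). In the combined condition against WT, 2 of 16 were called (12.5%), 1 higher and 1 lower, beside 4.11% of all features (3.6% higher, 0.505% lower). With the replicate number in the model 6 of 16 were called there, beside 17.2% of all features, Gabra4, Gabrg3, Grik5 and Grin2d in addition. Against UNC0642 alone the same condition had 2 called receptor genes, beside 1.16% of all features, and 4 with the replicate number in the model, Gabra3 and Gria4 in addition, beside 4.65%. With 16 genes the shares without the replicate number rest on 1 or 2 genes each.

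With UNC0642 alone, edgeR called 0 receptor genes and 0.0% of all features, with 1 receptor gene, Gria4, at an unadjusted p under 0.05, beside 3.35% of all features. The model with the replicate number also called 0, beside 0.166% of all features, and DESeq2 called 0, beside 0.739%. The median log2 fold change of the 16 genes against WT was -0.80 with UNC0642 alone, 0.17 in Setdb1 KO cells and 0.55 in the combined condition, where the medians over all features were -0.02, -0.02 and -0.01. Of the 16 fold changes, 3, 9 and 11 were positive in these conditions, beside 48.0%, 48.4% and 49.4% of all features, and some of the 16, such as Gabrr1, reached the tests only through the conditions in which they are high. The replicates are separate samples of 1 line, and p-values measure the spread between these samples. In bulk RNA, fewer cells that express a gene and less RNA per cell cannot be told apart.

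**Figure D2:**
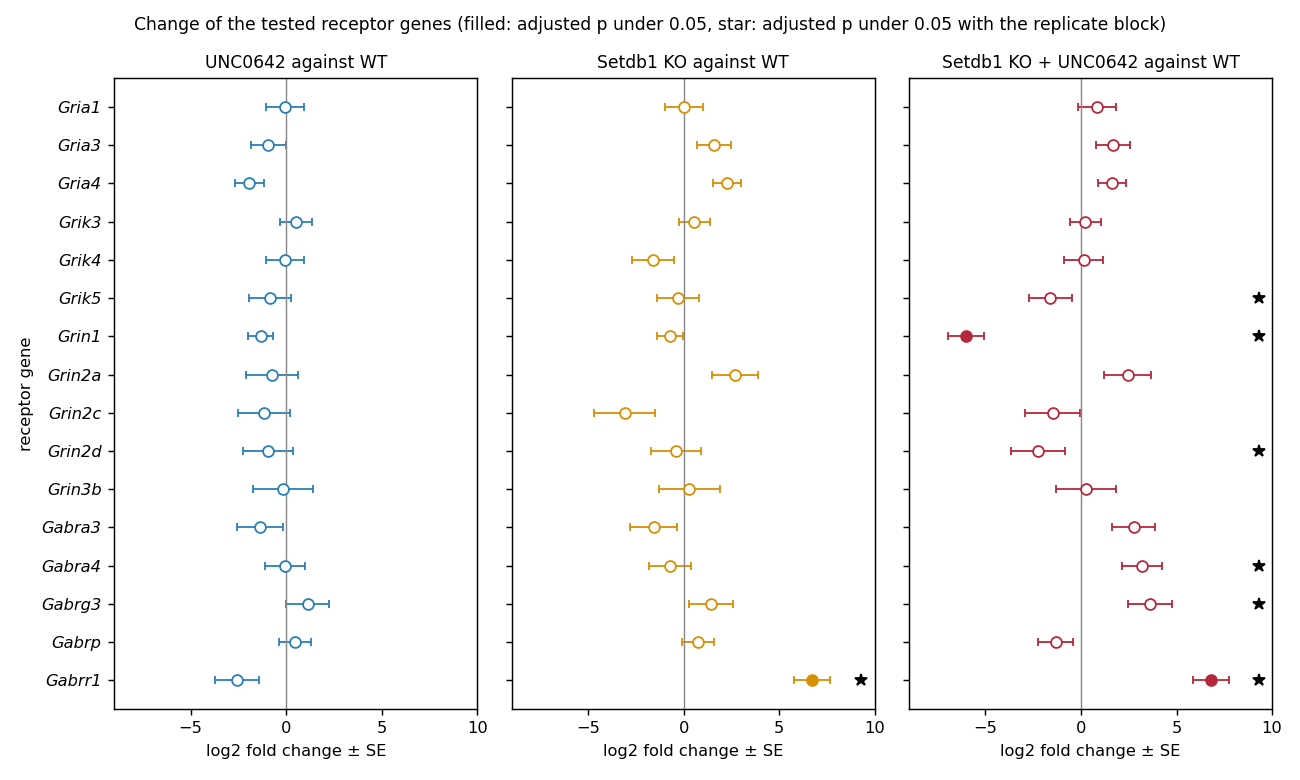
Log2 fold change with its SE (edgeR, 8 libraries) of the 16 tested receptor genes in each treated condition against WT. Filled points passed an adjusted p under 0.05, and a star marks genes that passed it with the replicate number in the model. Filled points are Gabrr1 in both Setdb1 KO conditions, at 6.71 and 6.80, and Grin1 at -6.02 in the combined condition.

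Gabrr1, which encodes the rho1 subunit of GABA-A receptors (chromosome 4, start 33132521, end 33163588, plus strand), reached the highest level per kb of exon of any receptor gene in the conditions without SETDB1 (12.4 and 13.2 CPM per kb). It had 2 and 9 counts in the WT libraries, 0 and 2 with UNC0642 alone, 356 and 759 in Setdb1 KO cells, and 417 and 469 in the combined condition. In normalized units this was 0.174 and 0.325 CPM, 0 and 0.0719 CPM, 15.1 and 41.8 CPM, and 43.3 and 17.2 CPM, respectively. All 4 libraries without SETDB1 lay above all 4 libraries with it, and the 2 conditions with 4-OHT overlapped each other.

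The mean level of Gabrr1 rose from 0.249 ± 0.107 CPM (SD, n = 2) in WT to 28.4 ± 18.9 CPM in Setdb1 KO cells, a log2 fold change of 6.71 ± 0.95 (SE, adjusted p by edgeR = 0.0135). In the combined condition the mean was 30.3 ± 18.4 CPM, with a log2 fold change against WT of 6.80 ± 0.95 (adjusted p by edgeR = 0.00700). The 11 WT counts set the precision: the ratio of summed counts was 95.1 in Setdb1 KO cells (95% counting interval 52.9 to 191) and 85.7 in the combined condition (47.7 to 172). Leaving out KO replicate 2 lowered the log2 fold change in Setdb1 KO cells to 5.77, and leaving out KO_UNC replicate 1, a library of the combined condition, lowered that of the combined condition to 5.99, and both stayed called. Without WT replicate 1 or WT replicate 2 the fold changes stayed between 6.42 and 7.41, but the adjusted p rose to 0.179 and 0.196 in Setdb1 KO cells, and to 0.0807 and 0.0771 in the combined condition.

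Addition of UNC0642 to Setdb1 KO cells left Gabrr1 at a log2 fold change of 0.09 ± 0.70 (adjusted p by edgeR = 1.00). Within replicate 1 the combined condition was higher (log2 ratio 1.52) and within replicate 2 it was lower (-1.28). Against UNC0642 alone, which had 2 counts in all, the ratio of summed counts was 590 (95% counting interval 163 to 4881), and the adjusted p by edgeR was 0.00808. It was 0.0631 without UNC replicate 1, and the log2 fold change of 9.36 moved to 8.59 without that library, to 8.56 without KO_UNC replicate 1 and to 12.24 without UNC replicate 2, where the remaining library had no read. Gabrr1 alone made up between 17.7% and 48.8% of the counts of the 32 genes in the libraries without SETDB1 and at most 0.692% in the others. Of the 8 other genes tested within 200 kb of Gabrr1, 0 were called by edgeR against WT in any of the 3 conditions, where 1, Rragd, passed with the replicate number in the model in the combined condition. Gabrr2, the neighbouring rho2 gene that starts 69.5 kb away on the same strand, had between 0 and 3 counts in every library.

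Grin1 encodes the obligatory GluN1 subunit of NMDA receptors (chromosome 2, start 25291181, end 25319187, minus strand). It had 48 and 205 counts in WT, 69 and 37 with UNC0642 alone, 59 and 83 in Setdb1 KO cells, and 1 and 2 in the combined condition. The corresponding levels were 4.18 and 7.40 CPM, 3.24 and 1.33 CPM, 2.50 and 4.57 CPM, and 0.104 and 0.0735 CPM. Both libraries of the combined condition lay below every other library, and both UNC0642-treated libraries lay below both WT libraries.

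The fitted log2 fold change of Grin1 between the combined condition and WT was -6.02 ± 0.93 (adjusted p by edgeR = 0.00948). The summed counts were 79.2-fold lower, with a 95% counting interval of 26.8 to 387 that reflects the 3 counts left. Against UNC0642 alone they were 26.5-fold lower (8.83 to 131), at an adjusted p of 0.0495 by edgeR, which exceeded 0.05 in each of the 8 fits that left out 1 library (0.0582 to 0.328). The log2 fold change there, -4.68, was -3.91 without UNC replicate 1. Against Setdb1 KO cells they were 41.7-fold lower (14.0 to 205), with an adjusted p of 0.312 by edgeR, 0.0752 with the replicate number in the model and 0.000725 by DESeq2. Each treatment alone gave smaller differences that did not pass, at -1.35 ± 0.68 with UNC0642 and -0.72 ± 0.67 in Setdb1 KO cells. The interaction of both treatments, the departure from the sum of the single differences, was -3.96 ± 1.12 on the log2 scale (unadjusted p by edgeR = 0.0061, adjusted p = 1.00). The call against WT was lost without WT replicate 1 (adjusted p = 0.0686), WT replicate 2 (0.0668) or KO_UNC replicate 2 (0.0755), KO_UNC being the combined condition.

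The count of Grin1 shares exons with an antisense transcript. Grin1os, annotated on the plus strand, covers 1307 of 9700 exonic bases of Grin1 (13.5%). Reads of the pair cannot be told apart where the counting does not use strand. The study gives default settings for the counting and does not name the one for strand. Grin1os had 30 and 69 counts in WT, 37 and 18 with UNC0642, 18 and 43 in Setdb1 KO cells, and 0 and 1 in the combined condition. It moved with Grin1, at a log2 fold change against WT of -6.32 ± 1.22 (adjusted p by edgeR = 0.0225). Of 23 tested genes within 200 kb of Grin1, Grin1os was the only one called by edgeR in that comparison, beside 4.11% of all features. With the replicate number in the model Abca2 and Uap1l1 were called in addition, beside 17.2% of all features.

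**Figure D3:**
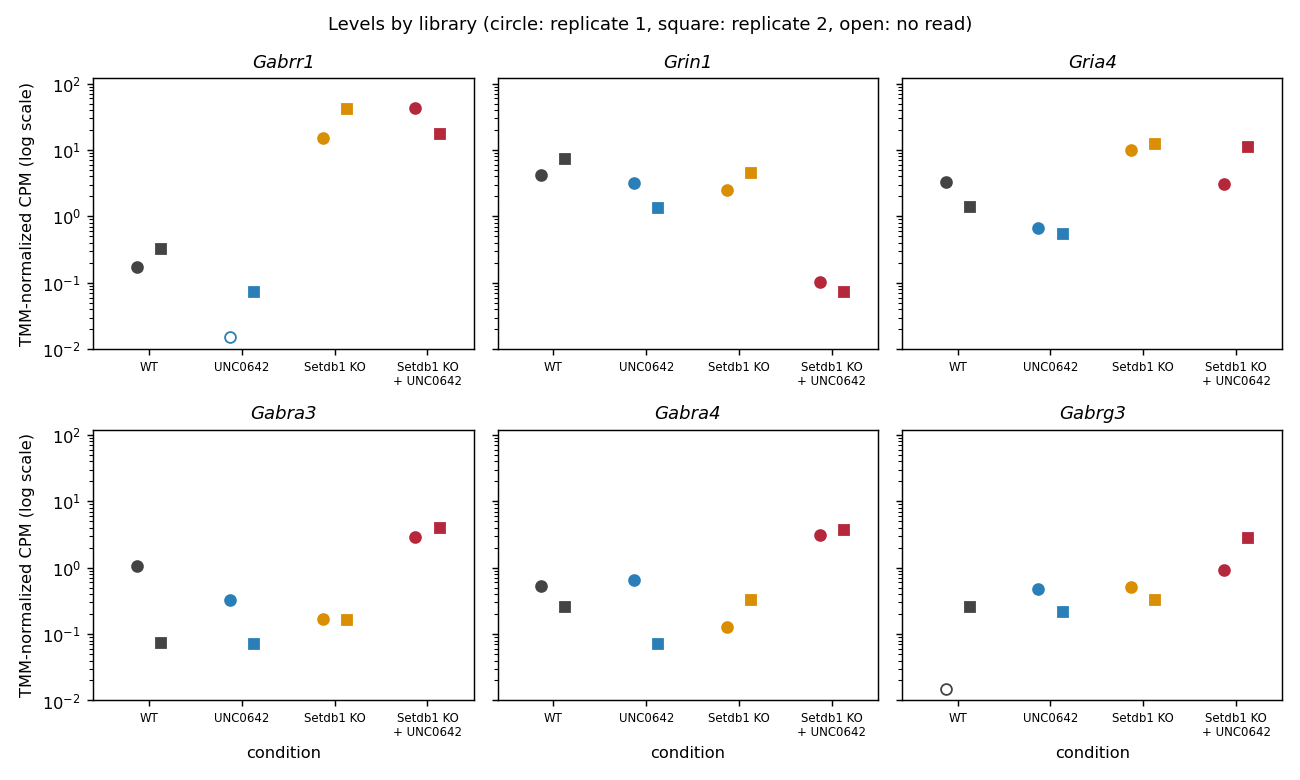
TMM-normalized CPM (log axis) of 6 receptor genes in the 4 conditions, with a circle for replicate 1, a square for replicate 2 and open symbols at the bottom for no read. Gabrr1 lies above 15 CPM in all libraries without SETDB1 and Grin1 near 0.1 CPM in both libraries of the combined condition, while Gabra3 and Gabra4 are highest in both libraries of that condition.

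Among the AMPA receptor genes, Gria4, which encodes GluA4, varied most between conditions (chromosome 9, start 4417896, end 4796234, minus strand). Its levels were 3.31 and 1.37 CPM in WT, 0.658 and 0.540 with UNC0642 alone, 9.95 and 12.4 in Setdb1 KO cells, and 3.11 and 10.96 in the combined condition. The Setdb1 KO libraries lay above and the UNC0642-treated libraries below both WT libraries, whereas the combined condition overlapped WT because its replicate 1 was at the WT level.

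By edgeR none of these differences of Gria4 from WT passed: the log2 fold changes were -1.94 ± 0.76 with UNC0642, 2.27 ± 0.74 in Setdb1 KO cells (adjusted p = 0.284) and 1.62 ± 0.72 in the combined condition (adjusted p = 0.280). DESeq2 called it in Setdb1 KO cells (log2 fold change 2.27, adjusted p = 0.0477), beside 3.5% of all features. By edgeR this value was 3.02 without WT replicate 1 and 1.74 without WT replicate 2. Between the combined condition and UNC0642 alone the difference was 3.56 ± 0.79, with an adjusted p of 0.0806 by edgeR, 0.0290 with the replicate number in the model and 0.000142 by DESeq2. It was 4.18 without KO_UNC replicate 1 and 2.38 without KO_UNC replicate 2.

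Gria3, the gene of GluA3, was at 0.784 and 0.686 CPM in WT, 0.705 and 0.0719 with UNC0642, 2.54 and 1.82 in Setdb1 KO cells, and 2.28 and 2.39 in the combined condition. Both KO conditions lay above both WT libraries, at log2 fold changes of 1.57 ± 0.89 and 1.67 ± 0.90 that did not pass (adjusted p by edgeR = 0.775 and 0.383). Gria1, the gene of GluA1, was at 1.65 and 0.433 CPM in WT, 1.46 and 0.504 with UNC0642, 1.65 and 0.385 in Setdb1 KO, and 2.49 and 1.21 in the combined condition, and differed more between replicates than between conditions. Gria2, not tested, had between 0 and 6 counts.

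Among the kainate receptor genes, Grik3 was the most abundant, and in the libraries with SETDB1 it was the most highly counted receptor gene. Grik3, the gene of GluK3, was at 6.44 and 45.1 CPM in WT, 16.9 and 56.2 with UNC0642 alone, 46.5 and 29.9 in Setdb1 KO cells, and 25.1 and 35.4 in the combined condition. It made up between 25.6% and 78.7% of the counts of the 32 genes in a library. The WT libraries spanned nearly the whole range, so that the conditions overlapped and the log2 fold changes of 0.50 ± 0.83, 0.56 ± 0.83 and 0.23 ± 0.83 lay within their errors. Per kb of exon, the WT level of Grik3 was 2.87 CPM, followed by Grik5 at 1.27, Grin1 at 0.597 and Gria4 at 0.371. Neighbours in this order did not differ beyond the spread of their replicates.

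Grik5, the gene of GluK5, was at 2.87 and 10.2 CPM in WT and at 1.83 and 5.43 with UNC0642. It was at 1.52 and 9.36 CPM in Setdb1 KO cells, and at 0.519 and 3.68 in the combined condition. Replicate 2 was above replicate 1 in all 4 conditions, and within each replicate number the combined condition was lowest. The difference of the combined condition from WT was -1.60 ± 1.11 (adjusted p by edgeR = 0.520), and with the replicate number in the model it was -1.81 ± 0.46 (adjusted p = 0.0312). Without the replicate number it moved to -2.24 without WT replicate 1, -0.40 without WT replicate 2, -0.85 without KO_UNC replicate 1 and -3.67 without KO_UNC replicate 2. Grik4, the gene of GluK4, was at 0.522 and 1.05 CPM in WT, 0.423 and 1.12 with UNC0642, 0.0423 and 0.495 in Setdb1 KO, and 0.727 and 1.03 in the combined condition. Both Setdb1 KO libraries lay below both WT libraries, at a log2 fold change of -1.61 ± 1.08 that did not pass (adjusted p by edgeR = 0.869). Grik1 had 1 count in all libraries together and Grik2 had 13.

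The other NMDA receptor genes, which encode the GluN2 and GluN3 subunits that assemble with GluN1, were not called by edgeR. Grin2d was at 1.48 and 3.14 CPM in WT, 0.282 and 2.09 with UNC0642, 0.381 and 3.14 in Setdb1 KO cells, and 0 and 0.846 in the combined condition. The combined condition lay below both WT libraries, at -2.26 ± 1.4 (adjusted p by edgeR = 0.462), and passed with the replicate number in the model (-2.89 ± 0.84, adjusted p = 0.0489). Without the replicate number the value was -1.61 without WT replicate 2, -1.46 without KO_UNC replicate 1 and -8.57 without KO_UNC replicate 2, where the remaining library of the combined condition had no read and the value depends on the prior count. Grin2a was at 0.261 and 0.108 CPM in WT, 0.0470 and 0.144 with UNC0642, 1.86 and 0.385 in Setdb1 KO, and 1.66 and 0.331 in the combined condition. It lay above WT in both KO conditions, at 2.70 ± 1.21 and 2.44 ± 1.24 (adjusted p by edgeR = 0.584 and 0.350).

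Grin2c had between 0 and 23 counts in a library and 0 in replicate 1 of both KO conditions, and lay below WT in both KO conditions, at -3.08 ± 1.61 and -1.48 ± 1.42 (adjusted p by edgeR = 0.712 and 0.672). Grin3b was at 0 and 1.15 CPM in WT, 0.0940 and 1.01 with UNC0642, 0.0847 and 1.49 in Setdb1 KO, and 0.311 and 1.10 in the combined condition. These values divided the libraries by replicate number and not by condition. Exons of Tmem259 on the opposite strand cover 1059 of 3296 exonic bases of Grin3b (32.1%), and Tmem259 likewise was at 9.12 to 13.6 CPM in replicate 1 and at 51.8 to 60.8 CPM in replicate 2 of the 4 conditions. Its part in the Grin3b counts was not tested. The level of Grin2b was 0 to 6 counts and that of Grin3a 1 to 8 counts, and neither was tested.

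Of the alpha and gamma subunit genes of GABA-A receptors, Gabra3, Gabra4 and Gabrg3 had their highest levels in both libraries of the combined condition, and none passed there by edgeR alone. Gabra3, the gene of the alpha3 subunit (chromosome X, start 72432681, end 72656848, minus strand), was at 1.04 and 0.0722 CPM in WT, 0.329 and 0.0719 with UNC0642, 0.169 and 0.165 in Setdb1 KO cells, and 2.91 and 4.01 in the combined condition. Both libraries of the combined condition lay above all others, which had at most 12 counts each against 28 and 109. The mean there was 3.46 ± 0.78 CPM (SD, n = 2).

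For Gabra3, the log2 fold change of the combined condition was 2.76 ± 1.13 against WT (adjusted p by edgeR = 0.235), 4.33 ± 1.22 against Setdb1 KO cells (0.690) and 4.12 ± 1.19 against UNC0642 alone (0.203). With the replicate number in the model the last of these passed (4.45 ± 1.01, adjusted p = 0.0455). By edgeR without it, it was 5.47 without UNC replicate 1 and 3.39 without UNC replicate 2. DESeq2 called it against Setdb1 KO cells (adjusted p = 0.0470, beside 0.634% of all features) and against UNC0642 alone (0.0142, beside 3.59%). The interaction was 5.69 ± 1.70 on the log2 scale (unadjusted p by edgeR = 0.00815, adjusted p = 1.00).

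Gabra4, the gene of the alpha4 subunit (chromosome 5, start 71569749, end 71658308, minus strand), followed the same order. It was at 0.522 and 0.253 CPM in WT, 0.658 and 0.0719 with UNC0642, 0.127 and 0.330 in Setdb1 KO cells, and 3.11 and 3.68 in the combined condition. The combined condition did not overlap any other condition. Its log2 fold change against WT was 3.18 ± 1.04, with an adjusted p of 0.135 by edgeR, 0.0410 with the replicate number in the model and 0.0333 by DESeq2. The other tested gene within 200 kb of Gabra4, Cox7b2, was called higher in the combined condition, at a log2 fold change of 6.25. In Setdb1 KO cells its log2 fold change of 3.56 did not pass by edgeR. With the replicate number in the model Cox7b2 was called higher there too (3.47). Gabrb1, whose start site lies 0.195 kb from that of Gabra4 on the opposite strand and whose exons overlap it by 46 bases, had no read in any library.

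Gabrg3, the gene of the gamma3 subunit, was at 0 and 0.253 CPM in WT, 0.470 and 0.216 with UNC0642, 0.508 and 0.330 in Setdb1 KO cells, and 0.934 and 2.83 in the combined condition. The combined condition was above all others, with a log2 fold change against WT of 3.60 ± 1.14 and an adjusted p of 0.126 by edgeR, 0.0462 with the replicate number in the model and 0.0424 by DESeq2. Most of its counts there (77 of 86) came from replicate 2. The log2 fold change was 2.56 without that library, 2.89 without WT replicate 1, and 8.26 without WT replicate 2, where the remaining WT library had no read and the value depends on the prior count.

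Gabrp, the gene of the pi subunit found mainly outside the nervous system, was at 0.435 and 0.758 CPM in WT, 0.611 and 1.04 with UNC0642, 0.677 and 1.43 in Setdb1 KO, and 0.104 and 0.331 in the combined condition. It was lowest in both libraries of the combined condition, at -1.32 ± 0.91 against WT (adjusted p by edgeR = 0.515) and -2.10 ± 0.90 against Setdb1 KO cells (unadjusted p = 0.0445, adjusted p = 1.00).

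Counted by library, 6 of the 16 tested receptor genes had both libraries of the combined condition above both WT libraries (Gabra3, Gabra4, Gabrg3, Gabrr1, Gria3 and Grin2a), where 22.3% of all features did. Below both WT libraries were 4 (Grin1, Grin2c, Grin2d and Gabrp), where 21.1% of all features were. For Setdb1 KO cells these counts were 5 above and 2 below, beside 17.5% and 13.1% of all features, and for UNC0642-treated mESCs 0 above and 3 below, beside 13.7% and 10.7%. The 3 comparisons share their WT libraries, and a gene can have passed the filter through the condition in which it is high. With the replicate number in the model, 6 of 16 receptor genes were called in the combined condition against WT (Gabrr1, Gabra4 and Gabrg3 higher, Grin1, Grin2d and Grik5 lower), beside 17.2% of all features (9.98% higher, 7.19% lower). DESeq2 called 4 of 16 (Gabrr1, Gabra4 and Gabrg3 higher, Grin1 lower), beside 9.34%. Against UNC0642 alone, 4 were called with the replicate number in the model (Gabrr1, Gabra3 and Gria4 higher, Grin1 lower), beside 4.65%, and 5 by DESeq2, beside 3.59%.

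Neither the combined condition against Setdb1 KO cells nor the interaction had a receptor gene called by edgeR, where 0.0% of all features were called in both. At an unadjusted p under 0.05 there were 4 receptor genes in the first (Gabra3, Gabra4, Gabrp and Grin1), beside 4.58% of all features, and 3 in the interaction (Gabra3, Gabra4 and Grin1), beside 0.751%. Gabra3 and Gabra4 have most of their counts in the combined condition, and a gene can pass the filter through the condition in which it is high. These counts are therefore no support for an interaction in the receptor genes as a group. With the replicate number in the model both counts were also 0 (beside 0.129% of all features in the first), whereas DESeq2 called 2 receptor genes in the first, Gabra3 higher and Grin1 lower, and 0 in the interaction, where it called 0.00616% of all features.

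The GABA-A receptor genes lie in clusters, and within most clusters the levels differed from gene to gene. On chromosome 4, Gabrr1 changed beside a nearly unread Gabrr2. On chromosome 5, in the order Gabrg1, Gabra2, Gabra4 and Gabrb1, Gabra4 reached 100 counts in a library of the combined condition, while Gabrg1 and Gabra2 did not exceed 10 and 7 and Gabrb1 stayed at 0. On chromosome X, Gabra3 reached 109 counts between Gabre and Gabrq, which lie 158 kb and 168 kb away and did not exceed 2 and 5 counts. On chromosome 7, Gabra5 beside Gabrg3 had between 0 and 11 counts, and on chromosome 11 Gabra6 and Gabrb2 had 0 and at most 2.

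**Figure D4:**
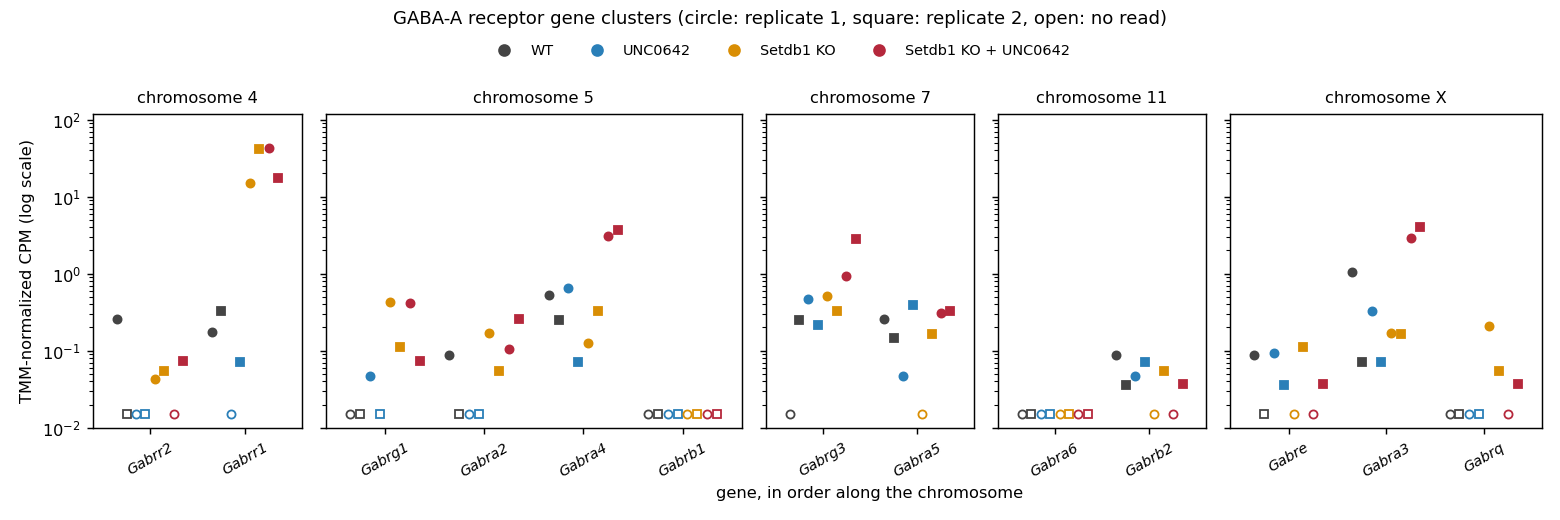
TMM-normalized CPM (log axis) of GABA-A receptor genes of 5 chromosomal clusters, in their order along the chromosome, with a colour for each condition, a circle for replicate 1, a square for replicate 2 and open symbols for no read. The highest values are those of single genes in a cluster, such as Gabrr1 on chromosome 4, Gabra4 on chromosome 5 and Gabra3 on chromosome X.

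Several receptor genes differed between the replicates in every condition. In the model with the replicate number, 4 of 16 receptor genes had a replicate term at an adjusted p under 0.05 by edgeR (25%), beside 34.9% of all features. Grik5 was 4.42-fold higher in replicate 2 (adjusted p = 0.00294), Grin2d 5.59-fold (0.0121) and Grin3b 10.6-fold (0.00768), each in 4 of 4 conditions. Gria1 was 3.06-fold lower in replicate 2 (adjusted p = 0.0163), also in all 4 conditions. For Gabrr1 and Grin1 the replicate terms were 0.26 ± 0.58 and 0.14 ± 0.47 on the log2 scale.

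**Figure D5:**
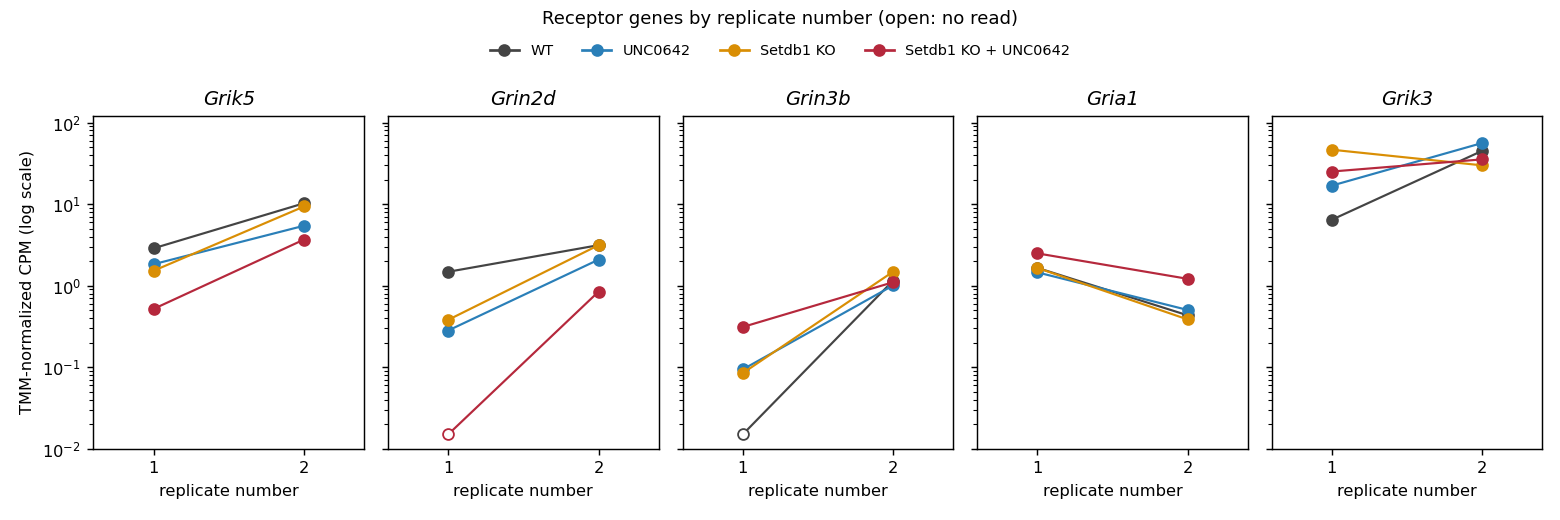
TMM-normalized CPM (log axis) of 5 receptor genes in replicates 1 and 2, with a line joining the libraries of each condition and open symbols for no read. Grik5, Grin2d and Grin3b are higher in replicate 2 in all 4 conditions, Gria1 is lower, and Grik3 is higher in 3 of 4.

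Other genes of glutamate and GABA signalling were counted by list, and in the combined condition against WT each count stands beside the shares of all features called, 4.11% by edgeR, 17.2% with the replicate number in the model and 9.34% by DESeq2. Of 18 genes for the synthesis, breakdown and transport of the transmitters, 11 were tested and 0 were called by edgeR in any comparison with WT. The smallest unadjusted p by edgeR in the combined condition were those of Gls2, a glutaminase (log2 fold change -1.32, adjusted p = 0.214), Gad2, which makes GABA (1 and 0 counts in WT, 6 and 10 in the combined condition, adjusted p = 0.226), and Slc17a7, a vesicular glutamate transporter (-1.65, adjusted p = 0.254). With the replicate number in the model Gls2 was called lower (adjusted p = 0.0159). DESeq2 called 0.

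Of 29 auxiliary subunits and scaffold proteins, 22 were tested and 0 were called by edgeR. With the replicate number in the model 6 of the 22 passed in the combined condition, beside 17.2% of all features. Higher were Neto2, an auxiliary subunit of kainate receptors (log2 fold change 2.82 without the replicate number), Shisa9, an auxiliary subunit of AMPA receptors (2 and 0 counts in WT, 21 and 12 in the combined condition), and the scaffold gene Shank1 (1.60). Lower were Cnih2, an AMPA receptor auxiliary subunit (-2.59), and the scaffold genes Dlg3 (-1.25) and Dlg4 (-2.00). DESeq2 called 1 higher and 1 lower, beside 9.34% of all features.

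Among 16 metabotropic, delta and glycine receptor genes, 7 were tested. Grm5 and Grm8, which encode G protein-coupled glutamate receptors, were upregulated in the combined condition, and no gene of the list was called by edgeR in the other 2 comparisons with WT. Grm8 had 1 and 3 counts in WT, 32 and 6 with UNC0642, 26 and 8 in Setdb1 KO, and 28 and 204 in the combined condition (log2 fold change 5.62, adjusted p by edgeR = 0.0341). Grm5 had 0 counts in both WT libraries and 7 and 65 in the combined condition (adjusted p by edgeR = 0.0443). Of the 8 genes of the REST complex, none was called by edgeR, and with the replicate number in the model Rcor2 (-1.88) and Phf21a (-1.27) were lower in the combined condition. DESeq2 also called 2 of the 8 lower in that condition, beside 9.34% of all features. Rest itself had a log2 fold change of 0.01 there.

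Markers of other cells were compared beside the receptor genes. Each count against WT stands beside the shares of all features called by edgeR. These were 0.0% with UNC0642, 1.12% in Setdb1 KO and 4.11% in the combined condition (17.2% there with the replicate number in the model). Of 9 neuron markers 6 were tested and 0 were called by edgeR against WT, with summed levels of 237 to 340 CPM in WT, 243 to 248 with UNC0642, 185 to 229 in Setdb1 KO, and 255 to 338 in the combined condition. Dcx was at or under the floor in every condition. Snap25 and Syt1 were at or under it in both WT libraries, but above it in a library of each treated condition. Elavl3 was called lower in the combined condition with the replicate number in the model. Of 8 neural progenitor markers 6 were tested and 0 were called by edgeR, with sums of 55.4 to 67.1, 49.5 to 58.0, 30.8 to 69.0 and 41.3 to 88.4 CPM. Neurog2 was at or under the floor in every condition, and Olig2 passed as lower in the combined condition with the replicate number in the model. Trophectoderm, primitive endoderm and mesoderm markers (4, 5 and 4 tested) had 0 called by edgeR, and with the replicate number in the model Eomes was lower in the combined condition.

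Markers of the 2-cell-like state, a rare state of mESC cultures, did move. All 6 (Zscan4c, Zscan4d, Zscan4f, Tcstv3, Zfp352 and Usp17la) were called higher in the combined condition, 1 (Usp17la) in Setdb1 KO cells and 0 with UNC0642 alone by edgeR. With the replicate number in the model the counts were 6, 5 (all but Tcstv3) and 1 (Usp17la), beside 17.2%, 4.3% and 0.166% of all features. DESeq2 called all 6 in each of these conditions, beside 9.34%, 3.5% and 0.739%. Their summed level was 8.36 to 23.5 CPM in WT, 241 to 756 with UNC0642, 133 to 353 in Setdb1 KO and 547 to 1354 in the combined condition. The part of such cells in the levels of the receptor genes was not tested.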

How the data were processed

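The 8 poly(A) RNA-seq libraries were grouped by the condition and replicate number of their labels. The authors trimmed reads with Trim Galore 0.3.7, mapped them with TopHat to GRCm38 (mm10) and assigned them by TEtranscripts to genes and to transposable element subfamilies (2.77% to 17.1% of a library). The deposited numbers are these counts, not normalized. By the study's account TEtranscripts was run with default settings, and the strand setting is not named. Genes with a close relative can share reads.

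Low features were removed by filterByExpr (minimum count 10, minimum total count 15), leaving 15313 of 24062 genes and 932 of 1153 subfamilies. edgeR 4.0.16 (R 4.3.3, TMM normalization, prior count 0.125) fitted a quasi-likelihood model with 1 coefficient per condition to all 8 libraries. The SE printed with an edgeR value is its absolute log2 fold change divided by the square root of the F statistic of the test. P-values were adjusted by Benjamini-Hochberg over 16245 features, with calls at an adjusted p under 0.05 and no fold threshold. Counting intervals are exact binomial at 95% and, like the floor of 3 counts, cover counting error only.

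The replicate numbers were taken to pair the samples: deviations of libraries with the same number correlated between all 6 pairs of conditions (Pearson's r 0.285 to 0.663 across 15313 genes, which are not independent), and 34.2% of genes had a replicate term. The labels do not say what the number marks. Values from the fit with this number as a block stand where it changed a call.

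Alternatives were that block, DESeq2 1.42.0, RLE normalization, no expression filter, only the 4 libraries compared, genes only, an additional fold change above 10, and leaving out each library. Of the receptor genes 3, and of the pathway genes 1, are not reported here and stand in no count of receptor or list genes, although they stayed in the fits. The other receptor genes are named, with values per library for those called in any fit or with a mean of at least 10 counts. From 4 pathway lists the genes called are named, or else the 3 with the smallest p. Receptor genes, pathway lists and marker lists were chosen with earlier results of these data known. Exons came from GENCODE M21 and upstream windows from RefSeq. Figures used matplotlib 3.10.9.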

Additional observations from a re-analysis of the deposited data

How the results depend on the processing

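On all 8 libraries edgeR called 0 receptor genes with UNC0642 alone, 1 in Setdb1 KO cells and 2 in the combined condition against WT, 2 in the combined condition against UNC0642 alone, 0 in it against Setdb1 KO cells and 0 for the interaction. RLE normalization and the additional fold threshold of 10 gave these counts in all 6 comparisons. With the replicate block the count was 6 in the combined condition against WT and 4 against UNC0642 alone, and the block changed no other call of a receptor gene. DESeq2 called 2 in Setdb1 KO cells, 4 in the combined condition against WT, 2 against Setdb1 KO cells and 5 against UNC0642 alone. The fit of only the 4 libraries compared and the fit of genes only each called 1 against UNC0642 alone, where Grin1 did not pass (adjusted p by edgeR = 0.0867 and 0.0639). Only the 4 libraries gave 3 in the combined condition against WT, Gabra4 in addition. No expression filter gave 3 against UNC0642 alone, Gria4 in addition (adjusted p by edgeR = 0.0349). Leaving out each library in turn, the counts were 0 to 1 in Setdb1 KO cells, 0 to 2 in the combined condition against WT and 0 to 1 against UNC0642 alone, and 0 throughout in the other 3 comparisons. Without either WT library both counts against WT in the KO conditions were 0. A lone library is then assumed to vary like the other conditions. No fold change of a receptor gene called in any fit turned its sign under the alternatives run. Gabrg3, with few counts in WT, is limited by depth, since 3 counts are up to 0.261 CPM there.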
